A study of Mus musculus with 20 samples.

Results

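The secretory granule and hormone release genes are 37 genes, of 24062 genes counted, that were chosen by name for roles in making, filling, moving and fusing secretory vesicles. They comprise the prohormone-processing enzymes Pcsk1, Pcsk2, Cpe and Pam with the convertase partners Pcsk1n and Scg5, the granins Chga, Chgb, Scg2, Scg3 and Vgf, and the granule membrane or lumen proteins Ptprn, Ptprn2 and Resp18. The release machinery comprises the calcium sensors Syt1, Syt4 and Syt7, the small GTPases Rab27a, Rab27b, Rab3a, Rab3b, Rab3c and Rab3d, their effectors Sytl1, Sytl2, Sytl4, Sytl5 and Rims2, the SNARE proteins Snap25, Stx1a, Vamp2 and Vamp3, and the priming and clamping factors Cadps, Cadps2, Unc13a, Cplx1 and Cplx2. All 37 were found by symbol in the deposited counts.

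Endocrine cells of the anterior pituitary make peptide hormones as precursors, sort them together with granins into dense-core granules at the trans-Golgi network, and cut and trim them there with convertases, carboxypeptidase E and an amidating enzyme. Filled granules are moved and tethered by Rab GTPases and their effectors, made ready for fusion by Unc13 and CAPS proteins, and fused with the plasma membrane by SNARE proteins when calcium binds synaptotagmins. Fat cells do not hold such hormone granules, but they use some of the same Rab and SNARE families to bring other vesicles to the cell surface.

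Male C57BL/6N mice fed chow gave poly(A) RNA of the pituitary and of a fat depot under the skin of the groin, the inguinal white adipose tissue (iWAT). Each tissue gave 5 libraries labelled wt (WT below; numbers 33 and 34 at 21 weeks of age, 48 and 49 at 19 weeks, 56 at 18 weeks) and 5 labelled KLF14 KO (KO below; numbers 31, 32, 35 and 66 at 21 weeks, 50 at 19 weeks). The series describes a germline deletion of Klf14, which encodes a transcription factor of the Krüppel-like family. The sources used here do not give the deleted bases. The labels name no other allele or agent. The ages differ within each group, so its libraries did not all come from a single animal. No label states that libraries of the same age came from separate animals. The p-values below measure spread among libraries, which may in part be technical. Library totals were 13.6 to 17.6 M counts in the pituitary and 14.8 to 18.7 M in iWAT. Klf14 itself was higher in the libraries labelled KO in the pituitary, at 38.0, 34.5, 32.5, 31.6 and 30.2 CPM (counts scaled to one common library total, by TMM within a tissue) in KO 31, 32, 35, 50 and 66 against 18.8, 13.9, 16.0, 17.4 and 17.2 CPM in WT 33, 34, 48, 49 and 56. The genotypes are therefore called labelled KO and labelled WT, and every list of values below keeps these orders of library numbers.

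Some libraries stood apart in markers of other cell types. The library of iWAT KO 32 held 1330 counts of Gh (91.6 CPM) and 235 of Prl (16.2 CPM), the growth hormone and prolactin genes, against at most 0.955 and 0.184 CPM in the other 9 iWAT libraries. The library of iWAT KO 50 had the lowest summed level of 8 lymph node markers, 14.96 CPM against 259 to 1109 CPM in the other 9. It also had the highest sum of 5 blood markers, 7142 CPM against 899 to 3830 CPM. Its sum of 5 adipocyte markers was the highest too, 16778 CPM against 4633 to 13117 CPM. Among the blood markers, Hba-a1 and Hba-a2 had nearly equal counts, at most 29180 and 29178 in labelled KO iWAT, so the 5 were not independent. The summed level of 8 neuron markers was highest in iWAT KO 35 (26.9 CPM) and WT 34 (23.4 CPM), against 10.2 to 18.4 CPM in the others. WT 33, at 18.4 CPM, was close to the next library, at 17.7 CPM. Of these markers Nefl and Nefm were highest in KO 35 (0.817 and 0.467 CPM) and WT 33 (0.797 and 0.490 CPM), and Map2 was highest in WT 34 (9.33 CPM). In iWAT WT 34 and KO 66 the summed level of 6 epithelial markers was 245 and 119 CPM against 4.32 to 41.6 CPM in the others. In the pituitary the summed macrophage markers were 162 CPM in KO 50 against 50.1 to 74.9 CPM in the other 9 libraries, and the summed posterior lobe markers were 262 CPM in KO 66 against 96.0 to 180.3 CPM in the others. The 5 adipocyte markers summed to 1.87 to 3.87 CPM in the pituitary.

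Promoter sequences are described for the members, and shown for some granule genes and for the 1 member that passed a genotype test. RefSeq (GRCm38.p6) gave a window of 250 bases before the start for 27 of the 37 members, and none for Vamp2, Vamp3, Snap25, Sytl2, Syt4, Syt7, Rab27b, Cpe, Rims2 and Vgf. These 27 members had 32 windows in all. The letters TGACGTCA, the cAMP response element, read the same on both strands. They were in 3 of the 32 windows, those of 3 members, against 1.55% of 32851 windows of the same length. These 3 members are Chgb and Scg2, the granins with the highest levels in the pituitary, and Pcsk1, a convertase at place 13 among the members there. Scg5, Resp18, Chga and Pam, the next most abundant members with a window, did not have it. The element (in capitals) is shown with 10 bases on either side so that the flanks, which differ between the genes, can be compared.
Chgb: ggctgctccgTGACGTCAgggctgagcg
Scg2: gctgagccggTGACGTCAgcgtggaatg
Pcsk1: caggtagatcTGACGTCAagagatggct
These stretches lie at chr2:132781560-132781587 (plus strand), chr1:79440077-79440104 (minus strand) and chr13:75089769-75089796 (plus strand), with the element 72, 68 and 78 bases before the RefSeq start. In the mm10 annotation used for the counts Chgb starts at 132781278 and Scg2 at 79440090, so that the first stretch lies inside, and the second across the edge of, the gene as counted, while that of Pcsk1 lies before its start. A match of letters is a description and not evidence of binding.

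The window of Sytl1 is shown whole because Sytl1 was the member that differed between the labelled genotypes. It lies at chr4:133263088-133263337 on the minus strand and holds no annotated exon of any gene in the counted annotation. Capitals mark CACCC, letters that Krüppel-like factors are known to bind, and GGGTG, the same letters on the opposite strand; 3 matches were found, of which 2 abut each other.
Sytl1: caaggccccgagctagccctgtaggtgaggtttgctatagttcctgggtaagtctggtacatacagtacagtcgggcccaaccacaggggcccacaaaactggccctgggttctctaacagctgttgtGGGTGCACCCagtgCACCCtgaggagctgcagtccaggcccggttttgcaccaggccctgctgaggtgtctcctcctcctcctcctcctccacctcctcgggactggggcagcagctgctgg
CACCC on either strand was in 22 of the members' 32 windows, from 19 of the 27 members, and in 52.0% of all windows. The GC box GGGCGG, on either strand, was in 19 of the 32 windows and in 32.7% of all windows. These 19 windows came from 18 members, not including Sytl1.

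The first question was where the members stand in each tissue, taken from the labelled WT libraries. Levels are compared between genes as TPM (counts per base of exon, scaled to one common total in every library). Granule cargo led in the pituitary. Together the members reached 11283 ± 944 TPM there and 389 ± 23.6 TPM in iWAT (SD, n = 5 each), or 1.37% ± 0.067 and 0.0485% ± 0.0032 of all counts (SD, n = 5 each). Chgb, Scg2 and Scg5 made up 50.1% of the members' TPM in the pituitary, whereas Pam, Vamp3, Cpe, Vamp2, Rab3d and Rab27a made up 80.3% in iWAT. In these bulk samples fewer cells of a type and less RNA per cell cannot be told apart.

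**Figure D1:**
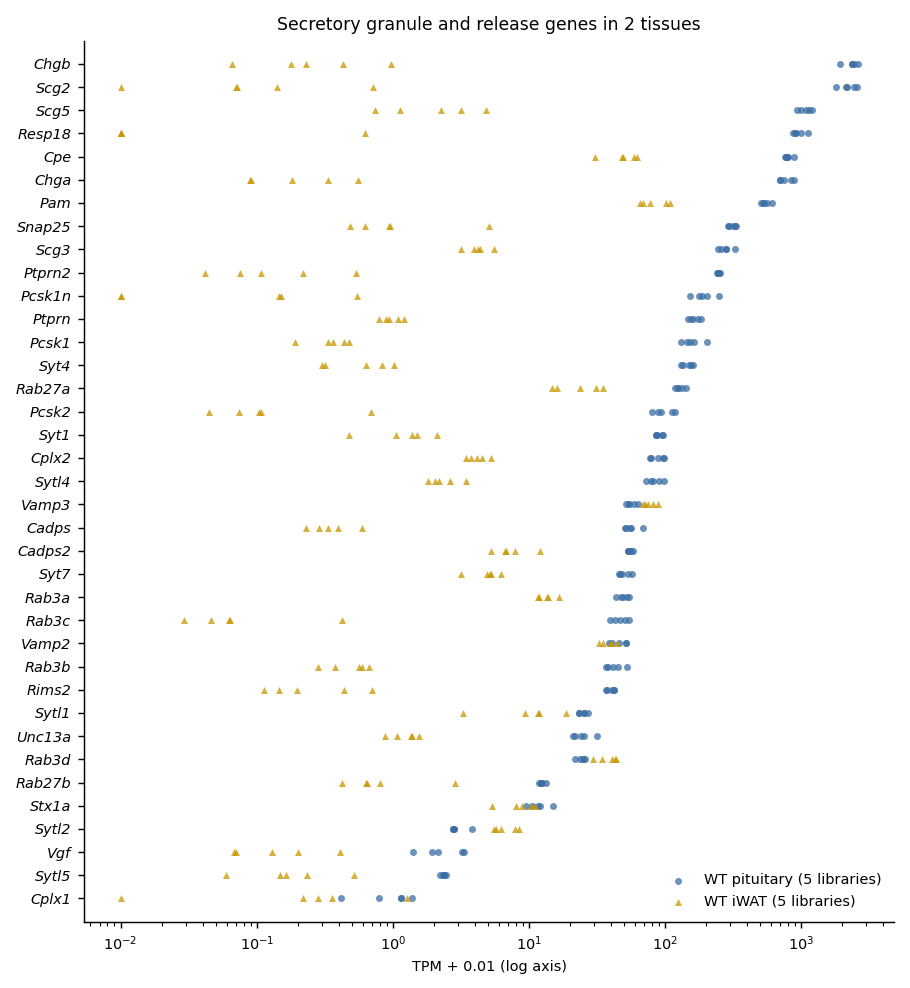
TPM + 0.01 on a log axis for the 37 members in each labelled WT library of the pituitary and of iWAT (points, 5 libraries each), ordered by the mean level in the pituitary. Granins and processing genes stand far apart between the tissues, while Vamp2, Vamp3, Stx1a, Rab3d, Sytl1 and Sytl2 lie close together.

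Of the 25 members whose counts passed the expression filter within iWAT, 22 were higher in the pituitary and 3 were lower (edgeR's quasi-likelihood test, Benjamini-Hochberg adjusted p under 0.05). Over the 14848 genes tested between the tissues whose counts passed the filter in each tissue, 76.6% passed, 37.5% as higher in the pituitary and 39.1% as lower; over all 17023 genes tested these shares were 79.1%, 40.2% and 38.9%. The median log2 difference, pituitary over iWAT, was 4.13 over the 25 members and -0.025 over these genes. The other 12 members passed the filter only through the pituitary and are therefore described by their levels, with no count or test: Pcsk1, Pcsk2, Pcsk1n, Chga, Chgb, Scg2, Vgf, Ptprn2, Resp18, Rab3c, Sytl5 and Cplx1.

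The granins, acidic proteins that aggregate with hormones in the granule, were led by Chgb, which encodes chromogranin B and ranked at place 15 among all genes in the labelled WT pituitary. Its level was 2601, 2435, 1939, 2369 and 2374 TPM in WT 33, 34, 48, 49 and 56. Scg2, which encodes secretogranin II, followed at 2458, 1811, 2150.4, 2173 and 2591 TPM, and Chga, which encodes chromogranin A, at 883, 696, 754, 700.1 and 838 TPM. The ranges of Chgb and Scg2 overlapped, and the lowest Scg2 library was above the highest Scg5 library. Scg3, a granin that binds chromogranin A and membrane cholesterol, was at 325, 259, 243, 282 and 281 TPM. Vgf, the precursor of several neuropeptides, was far below the other granins with 3.3, 3.19, 1.4, 1.93 and 2.13 TPM, and its WT 33 and WT 34 libraries were the highest. In labelled WT iWAT the raw counts of Chgb were 18, 1, 3, 4 and 7 and those of Scg2 12, 0, 1, 1 and 2, with WT 33 the highest for both. Scg3 was the 1 granin that passed the expression filter in iWAT, at 4.25 ± 0.86 TPM (SD, n = 5).

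Among the processing genes, Scg5, which encodes 7B2, the chaperone of the convertase Pcsk2, had the highest pituitary level, at 1194, 938, 995, 1079 and 1148 TPM. Cpe, the carboxypeptidase that trims the cut peptides, was at 884, 799, 765, 776 and 795 TPM in the pituitary and at 48.4, 30.6, 59.3, 62.2 and 49.4 TPM in iWAT. Pam, the enzyme that amidates peptide ends, was at 615, 565, 511, 531 and 521 TPM in the pituitary and, with 108, 77.4, 69.4, 101 and 65.9 TPM, was the most abundant member in iWAT. Cpe and Pam thus held levels in iWAT that the convertases did not: Pcsk1 was at 159 ± 27.0 TPM in the pituitary and 0.35 ± 0.109 TPM in iWAT, and Pcsk2 at 98.6 ± 16.3 and 0.193 ± 0.272 TPM (SD, n = 5 each). Pcsk1n, which encodes the convertase inhibitor proSAAS, was at 249, 188, 154, 178 and 202 TPM in the pituitary, with WT 33 the highest. The log2 difference, pituitary over iWAT, was 4.13 (SE 0.18) for Cpe and 2.81 (SE 0.17) for Pam (edgeR adjusted p = 3.68e-09 and 4.51e-08).

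Resp18, a regulated endocrine protein of the granule lumen, followed Scg5 among the members in the pituitary, at 1133, 921, 867, 896 and 1006 TPM. In iWAT it was counted 3 times in WT 33 and 0 times in the other 4 labelled WT libraries, where a count of 0 allows up to 3 counts per library. The granule membrane proteins Ptprn2 and Ptprn, inactive tyrosine phosphatases known as islet autoantigens, were at 252, 239.7, 247, 244 and 249 TPM and at 183, 175, 147, 159.6 and 156 TPM in the pituitary. Every Ptprn2 library was above every Ptprn library, and the ranges of Ptprn2 and Scg3 overlapped. Ptprn reached 0.973 ± 0.166 TPM in iWAT and Ptprn2 0.187 ± 0.203 TPM (SD, n = 5 each).

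The calcium sensors kept the order Syt4, Syt1, Syt7 in the pituitary, where Syt4, an atypical synaptotagmin, was at 147 ± 13.0 TPM, Syt1, the fast sensor, at 90.2 ± 5.22 TPM and Syt7, the slow high-affinity sensor, at 50.3 ± 5.00 TPM (SD, n = 5 each). In iWAT the order was turned around, with 4.96 ± 1.12 TPM for Syt7, 1.29 ± 0.596 TPM for Syt1 and 0.612 ± 0.316 TPM for Syt4 (SD, n = 5 each). The 5 libraries of Syt4 were above all 5 of Syt1 and those above all 5 of Syt7 in the pituitary, and in iWAT all 5 of Syt7 were above all 5 of Syt1.

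The Rab GTPases differed among themselves in level. Rab27a, which tethers secretory organelles through its effectors, was the most abundant of the 6 in the pituitary at 129 ± 9.18 TPM, and reached 16.2, 35.0, 31.1, 14.7 and 23.9 TPM in iWAT. Rab3d, a Rab of exocrine and fat cells, was the exception to the higher pituitary levels, with 25.1, 24.9, 25.8, 21.7 and 23.8 TPM in the pituitary and 42.7, 34.5, 29.5, 43.5 and 41.1 TPM in iWAT. Every iWAT library of Rab3d lay above every pituitary library on this scale, and the log2 difference, pituitary over iWAT, was -0.54 (SE 0.13, edgeR adjusted p = 0.00261). In the labelled KO libraries it was -0.41 and did not pass (edgeR adjusted p = 0.0730). The neuronal and endocrine forms were nearer to the pituitary pattern: Rab3a was at 49.5 ± 4.2 TPM in the pituitary and 13.5 ± 1.98 TPM in iWAT, Rab3b at 43.0 ± 6.35 and 0.488 ± 0.163 TPM, and Rab3c at 46.7 ± 6.04 and 0.115 ± 0.167 TPM (SD, n = 5 each). Reads of Rab3a and Rab3b are uncertain in part, because each shares exon bases with another gene and the counting did not use strand. Rab27b, the close relative of Rab27a, was at 12.4 ± 0.521 TPM in the pituitary and 1.07 ± 1.01 TPM in iWAT (SD, n = 5 each), where WT 34 alone held 2.86 TPM.

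The Rab effectors did too. Sytl4, which encodes granuphilin, a Rab27 effector that docks hormone granules, was at 84.6 ± 10.5 TPM in the pituitary and 2.41 ± 0.655 TPM in iWAT, and Rims2, a Rab3 effector of the release site, at 39.8 ± 2.67 and 0.31 ± 0.251 TPM (SD, n = 5 each). Sytl2, a Rab27 effector, was lower in the pituitary, with 2.78, 2.79, 2.77, 2.81 and 3.83 TPM against 5.57, 8.51, 7.96, 6.25 and 5.71 TPM in iWAT. All 5 iWAT libraries of Sytl2 were above all 5 pituitary libraries (log2 difference -1.05, SE 0.15, edgeR adjusted p = 4.007e-05). Sytl1, another Rab27 effector, was at 25.6, 23.5, 25.4, 23.5 and 27.4 TPM in the pituitary and 3.26, 18.7, 11.9, 9.38 and 11.8 TPM in iWAT, where it spread widely and WT 33 was the lowest. Sytl5 was at 2.34 ± 0.0841 TPM in the pituitary and 0.215 ± 0.176 TPM in iWAT (SD, n = 5 each).

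The SNARE proteins, which pull the membranes together, differed little between the tissues apart from Snap25, and Vamp3 and Vamp2 had the smallest log2 differences of the 25 members tested. Snap25, the SNARE of regulated release, was at 331, 293, 294, 325 and 315 TPM in the pituitary and 5.09, 0.616, 0.479, 0.934 and 0.946 TPM in iWAT, with WT 33 the highest iWAT library. Vamp2, the vesicle SNARE of regulated release, was at 39.8, 44.5, 40.1, 35.3 and 32.6 TPM in iWAT against 45.9 ± 5.94 TPM in the pituitary (SD, n = 5), and its log2 difference, pituitary over iWAT, was 0.38 (SE 0.098, edgeR adjusted p = 0.00419). Vamp3, the vesicle SNARE of recycling endosomes, was lower in the pituitary, with 63.8, 54.4, 51.7, 53.9 and 59.3 TPM against 89.2, 75.2, 69.1, 81.6 and 71.6 TPM in iWAT (log2 difference -0.33, SE 0.096, edgeR adjusted p = 0.00784). With library totals taken without the 20 most abundant genes, which moved the median of all genes by 0.18 on the log2 scale, Vamp3 was at -0.14 and did not pass (edgeR adjusted p = 0.116). Stx1a, the target-membrane SNARE, was at 11.7 ± 2.05 and 8.74 ± 2.26 TPM (SD, n = 5 each; log2 difference 0.55, edgeR adjusted p = 0.0121, and 0.0624 without replicate 33).

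Among the priming and clamping factors, Cplx2, a complexin that holds primed vesicles, was at 88.2 ± 10.1 TPM in the pituitary and 4.21 ± 0.681 TPM in iWAT. The CAPS genes Cadps and Cadps2, which prime dense-core granules, were at 56.6 ± 7.21 and 55.0 ± 2.04 TPM in the pituitary but at 0.357 ± 0.138 and 7.71 ± 2.59 TPM in iWAT (SD, n = 5 each). The levels of the CAPS pair overlapped in the pituitary, and in iWAT every Cadps2 library was above every Cadps library. Unc13a, a priming factor of the Munc13 family, was at 24.8 ± 4.13 and 1.24 ± 0.275 TPM (SD, n = 5 each). Cplx1, the complexin of fast synapses, was the lowest member of the pituitary at 1.13, 1.37, 0.787, 0.408 and 1.14 TPM and was at 1.27, 0.349, 0.209, 0.272 and 0 TPM in iWAT, where its counts were traces.

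Neighbours in these orders often lay close. In the pituitary the libraries of 28 of the 36 neighbouring pairs overlapped, although in 8 of these 28 the first gene was higher than the next within each of the 5 libraries, as Scg5 was over Resp18 and Snap25 over Scg3, and the steps without overlap were those from Scg2 to Scg5, from Chga to Pam, from Pam to Snap25, from Sytl4 to Vamp3, from Rims2 to Sytl1, from Rab3d to Rab27b, from Stx1a to Sytl2 and from Sytl5 to Cplx1. In iWAT 35 of 36 neighbouring pairs overlapped, in 2 of which the first gene was higher within each library, and the step without overlap was that from Vamp3 to Cpe. The coefficient of variation over labelled WT libraries had a median of 7.05% in the pituitary and 27.1% in iWAT for the 25 members tested in both.

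The second question was whether the members differ between labelled KO and labelled WT pituitaries. Of the 37 members 1 passed: Sytl1, a Rab27 effector, was lower in labelled KO. Over all 16389 genes tested 0.549% passed, 0.134% as lower (edgeR's quasi-likelihood test, Benjamini-Hochberg adjusted p under 0.05). None of the granins, processing genes, granule membrane proteins, calcium sensors, Rab GTPases, SNARE proteins or priming factors passed. The log2 fold changes of the 37, labelled KO over labelled WT, lay between -0.44 and 0.38 with a median of 0.0045, against a median of 0.0036 over all genes tested; 19 were positive and 18 negative. The members' summed level was 10813 ± 753 TPM in labelled KO against 11283 ± 944 TPM in labelled WT (SD, n = 5 each).

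Sytl1 was at 17.5, 17.8, 15.3, 16.7 and 17.4 CPM in KO 31, 32, 35, 50 and 66 and at 22.1, 22.4, 24.3, 21.8 and 24.2 CPM in WT 33, 34, 48, 49 and 56. Every labelled KO library lay below every labelled WT library, and the groups did not overlap. Sytl1 was the 1 member of 37 without overlap, and 2.83% of all genes tested showed none in either direction. The log2 fold change was -0.44 (SE 0.068, edgeR adjusted p = 0.00768), lower in labelled KO in 25 of 25 pairs of libraries. The gene is counted over 15 exons at chr4:133253090-133263087 on the minus strand (mm10; 1925 exon bases), and its window before the start is the one printed above. Leaving out each library in turn gave log2 fold changes between -0.46 and -0.41 (edgeR adjusted p from 0.0132 to 0.0316), and leaving out KO 50 and KO 66 together gave -0.45 (edgeR adjusted p = 0.0396). With age as a covariate the log2 fold change was -0.42 (edgeR adjusted p = 0.0387). The call was lost with 21 weeks only, 4 labelled KO against 2 labelled WT libraries, at -0.39 (edgeR adjusted p = 0.442), and with all 20 libraries in 1 fit, at -0.44 (edgeR adjusted p = 1).

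**Figure D2:**
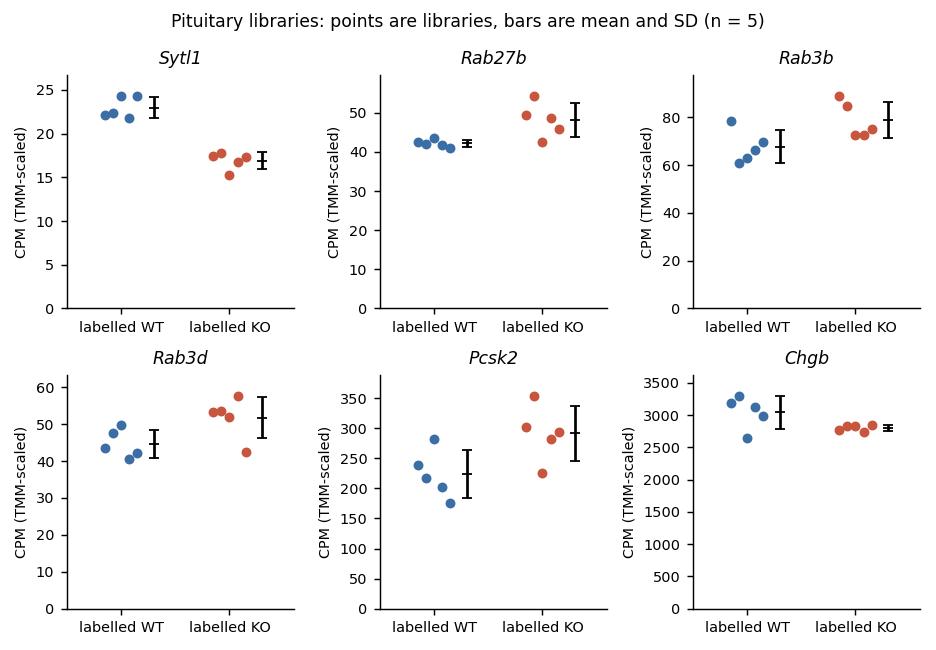
CPM in each pituitary library (points; blue labelled WT, red labelled KO) with mean and SD bars (n = 5 each) for the 6 members with an unadjusted p under 0.05, on axes that start at 0. The labelled KO libraries of Sytl1, at 15.3 to 17.8 CPM, all lie below the labelled WT libraries, at 21.8 to 24.3 CPM, while the groups of the other 5 genes overlap.

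Of the 37 members 6 had an unadjusted p under 0.05, as did 10.9% of all genes tested. Besides Sytl1 these were 3 Rab GTPases, 1 convertase and 1 granin, none of which passed after adjustment. Rab27b was at 49.6, 54.4, 42.6, 48.6 and 45.9 CPM in the labelled KO libraries and 42.5, 42.0, 43.7, 41.9 and 40.9 CPM in the labelled WT libraries. The lowest labelled KO library, KO 35, fell inside the labelled WT range, and the other 4 lay above it (log2 fold change 0.19, SE 0.063, edgeR adjusted p = 0.227). Rab3b was at 89.0, 84.6, 72.5, 72.7 and 75.1 CPM in the labelled KO libraries and 78.5, 61.1, 63.1, 66.4 and 69.5 CPM in the labelled WT libraries, with WT 33 reaching into the labelled KO range (log2 fold change 0.22, SE 0.076, edgeR adjusted p = 0.275). Rab3d was at 53.3, 53.5, 52.0, 57.6 and 42.5 CPM in the labelled KO libraries and 43.5, 47.6, 49.7, 40.5 and 42.3 CPM in the labelled WT libraries, with KO 66 inside the labelled WT range (log2 fold change 0.21, SE 0.080, edgeR adjusted p = 0.317). The other 3 Rab GTPases had log2 fold changes of 0.029 (Rab27a), -0.066 (Rab3a) and -0.029 (Rab3c).

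Pcsk2, the convertase that makes alpha-melanocyte-stimulating hormone from its precursor together with Pcsk1, was at 301, 353, 226, 282 and 294 CPM in the labelled KO libraries and 239, 218, 281, 202 and 176 CPM in the labelled WT libraries. Labelled KO was higher in 23 of 25 pairs of libraries, and the ranges overlapped through KO 35 and WT 48 (log2 fold change 0.38, SE 0.14, edgeR adjusted p = 0.329). Part of its count is uncertain, since it shares exon bases with the antisense genes Pcsk2os1 and Pcsk2os2. Pcsk1 had a log2 fold change of -0.0064 (SE 0.10), Cpe of -0.10 (SE 0.051) and Pam of 0.083 (SE 0.056), and the convertase partners Pcsk1n and Scg5 of -0.11 (SE 0.11) and -0.083 (SE 0.048).

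Chgb was at 2768, 2829, 2830.5, 2744 and 2841 CPM in the labelled KO libraries and 3189, 3296, 2639.9, 3125 and 2983 CPM in the labelled WT libraries. The 5 labelled KO libraries lay close together between the lowest labelled WT library, WT 48, and the other 4 (log2 fold change -0.12, SE 0.050, edgeR adjusted p = 0.376). The other abundant granins had log2 fold changes of -0.011 (Scg2, SE 0.070), -0.052 (Chga, SE 0.082) and 0.035 (Scg3, SE 0.059). Vgf had the largest positive value after Pcsk2 among the members, 0.38 (SE 0.34), which came from KO 31 and KO 50: its labelled KO libraries were at 5.77, 2.29, 2.29, 6.07 and 2.42 CPM and its labelled WT libraries at 3.78, 4.03, 1.78, 2.38 and 2.5 CPM. The same pair of libraries was the highest for Ptprn, which was at 404, 294, 271, 396 and 270.3 CPM in the labelled KO libraries and 289.5, 306, 259, 272 and 253 CPM in the labelled WT libraries (log2 fold change 0.24, SE 0.13). Ptprn2 and Resp18 had log2 fold changes of 0.0095 (SE 0.035) and -0.099 (SE 0.063).

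The core fusion machinery was nearly level between the labelled genotypes. Snap25 was at 329.7 ± 12.2 CPM in the labelled KO libraries and 332 ± 11.3 CPM in the labelled WT libraries, and Rims2 at 151 ± 2.55 and 150.3 ± 6.8 CPM (SD, n = 5 each), with log2 fold changes of -0.010 (SE 0.039) and 0.0057 (SE 0.041). The 4 SNARE genes had log2 fold changes between -0.011 and 0.096, the 3 calcium sensors between -0.031 and 0.11, and the 5 priming and clamping factors between -0.086 and 0.026. Of the other Rab27 effectors, Sytl4 was at 229 ± 39.0 against 203 ± 24.5 CPM, Sytl5 at 6.28 ± 1.21 against 7.4 ± 0.424 CPM and Sytl2 at 7.02 ± 2.08 against 7.73 ± 1.07 CPM (labelled KO against labelled WT; SD, n = 5 each). None of these 3 had an unadjusted p under 0.05.

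**Figure D3:**
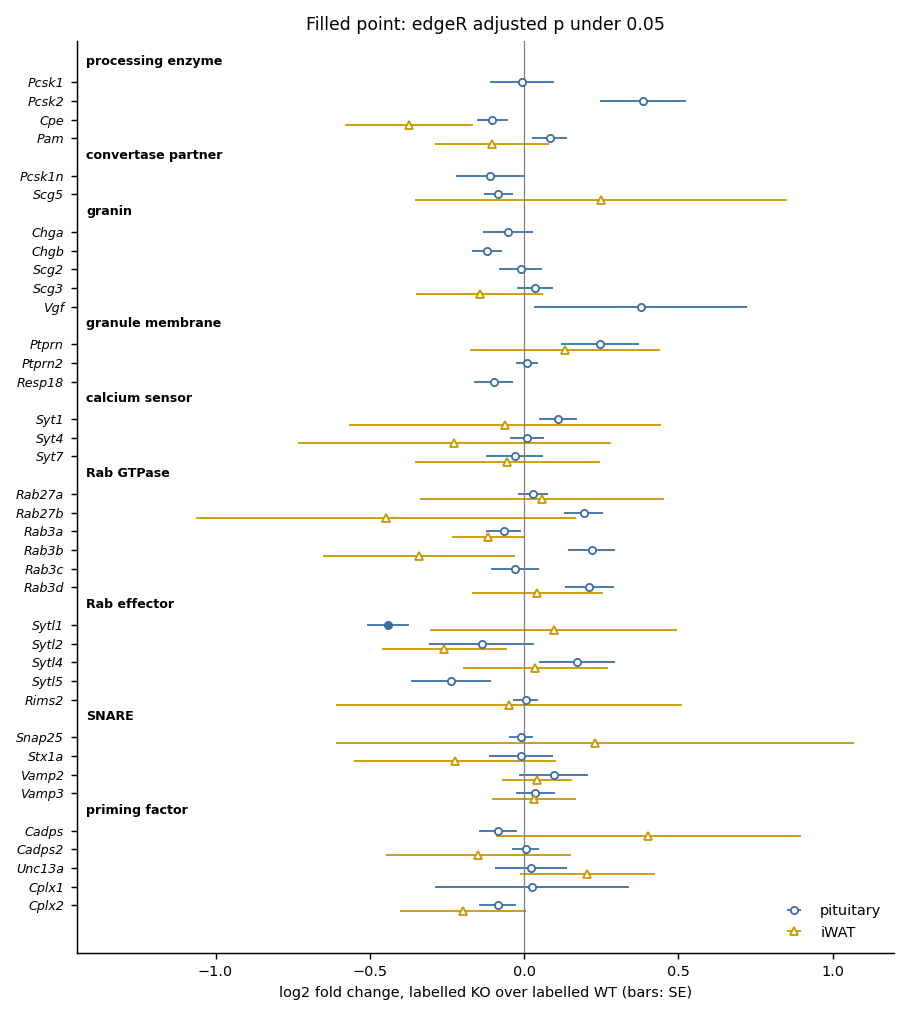
Log2 fold change, labelled KO over labelled WT, with bars of 1 SE, for the members in the pituitary (37 tested) and in iWAT (25 tested), ordered by role. In the pituitary the values lie between -0.44 (Sytl1) and 0.38 (Pcsk2), and in iWAT, where the bars are longer, between -0.45 (Rab27b) and 0.40 (Cadps).

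A list of 82 other genes of granule biogenesis, tethering and fusion was set beside the members. Of these 77 were tested in the pituitary and 1 passed: Rims3, a small relative of the Rab3 effectors of the release site, was higher in labelled KO. It was at 16.5, 13.3, 12.1, 15.2 and 14.6 CPM in the labelled KO libraries and 10.5, 10.6, 10.3, 9.29 and 10.0 CPM in the labelled WT libraries, and the groups did not overlap, as for 2.83% of all genes (log2 fold change 0.50, SE 0.095, edgeR adjusted p = 0.0300). The call was lost without any 1 of KO 31, KO 32, KO 66, WT 34, WT 48, WT 49 and WT 56 (edgeR adjusted p up to 0.0978), with age as a covariate (0.0956), with 21 weeks only (0.627), with all 20 libraries in 1 fit (1) and without KO 50 and KO 66 together (0.110), which makes 11 of 19 alternatives. Over the 77 genes 42 log2 fold changes were positive and 35 negative, with a median of 0.018. Of the 77, 12 had an unadjusted p under 0.05, beside the 10.9% of all genes tested, and the 1 call stands beside the 0.549% of all genes.

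The pituitary libraries also differed in Pomc, the hormone precursor gene of corticotrophs and melanotrophs. Pomc was at 11719, 13994, 8422, 8172 and 7870 CPM in KO 31, 32, 35, 50 and 66 and at 7688, 9158, 9409, 5578 and 4696 CPM in WT 33, 34, 48, 49 and 56. The summed level of Pomc, Tbx19 and Crhr1 was 7956 to 14081 CPM in labelled KO and 4794 to 9488 CPM in labelled WT, with none of the 3 markers at 0 in any pituitary library. This sum is nearly all Pomc, and the 3 markers did not move alike: the log2 fold change, labelled KO over labelled WT, was 0.46 (SE 0.25) for Pomc, 0.10 (SE 0.15) for Tbx19 and -0.17 (SE 0.16) for Crhr1, and none passed. Across the 10 libraries Pcsk2 followed Pomc with Pearson's r = 0.858 (permutation p = 0.00113, adjusted over the 37 members 0.0418) and Spearman's rho = 0.709 (permutation p = 0.0263, adjusted 0.324). Without KO 32 and WT 56, the libraries farthest from the median of Pomc, r was 0.624, and with each genotype centred on its own mean r was 0.793. Pearson's r of the 37 members passed the adjustment for 1, Pcsk2, and Spearman's rho for 0. Rab27b had r = 0.774 (permutation p = 0.00800, adjusted 0.148) and Rab3d r = 0.716 (permutation p = 0.0182, adjusted 0.173). Sytl1 had r = -0.448, which was 0.25 with each genotype centred. Some marker genes, chosen after their values were seen, were lower in labelled KO as Sytl1 was. Tubb3, a tubulin of neurons, was at 31.1, 30.6, 29.7, 30.9 and 26.6 CPM in the labelled KO libraries and 36.96, 40.1, 46.1, 38.6 and 37.9 CPM in the labelled WT libraries, with no overlap (log2 fold change -0.42, SE 0.070, edgeR adjusted p = 0.0115). Cga, the shared hormone subunit of gonadotrophs and thyrotrophs, was at 2304 ± 142 against 2807 ± 255 CPM, also without overlap (SD, n = 5 each; log2 fold change -0.28, SE 0.060, edgeR adjusted p = 0.0558). Krt18, an epithelial keratin, was at 46.5 ± 2.66 against 55.4 ± 7.03 CPM (SD, n = 5 each; log2 fold change -0.25, SE 0.078, edgeR adjusted p = 0.209). The log2 fold changes of the other tested genes in the lists of Tubb3, Cga and Krt18 went both ways. Among neuron markers they were 0.21 (Nefl), -0.12 (Nefm), 0.088 (Nefh), -0.23 (Elavl4), 0.093 (Stmn2), 0.025 (Map2) and 0.15 (Rbfox3). Hormone subunits had -0.23 (Lhb), 0.12 (Fshb) and 0.41 (Tshb), and epithelial genes -0.18 (Krt8), 0.011 (Epcam) and 0.0015 (Cdh1). These lists overlapped between labelled KO and labelled WT as sums: 357 to 392 against 362 to 413 CPM for the 8 neuron markers, 398 to 487 against 433 to 488 CPM for the 6 epithelial markers, and 3150 to 3660 against 3451 to 4104 CPM for the gonadotroph and thyrotroph markers. The part of these cells in the difference of Sytl1 was not tested. The part of the Pomc-expressing cells in the differences of Pcsk2, Rab27b and Rab3d was not tested.

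**Figure D4:**
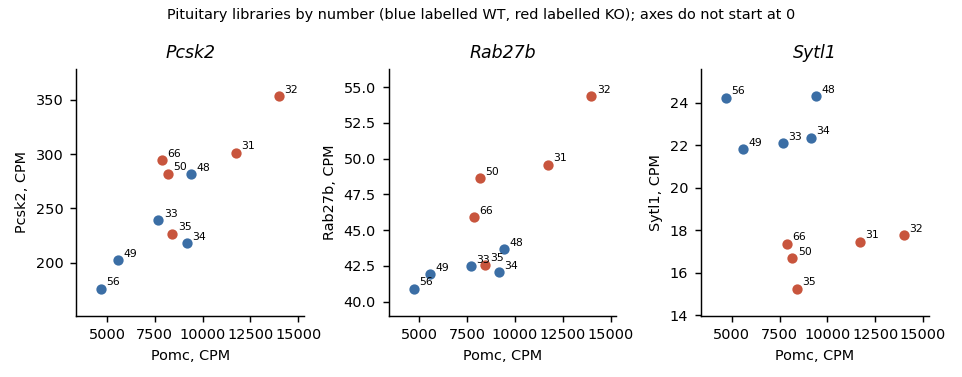
CPM of Pcsk2, Rab27b and Sytl1 against CPM of Pomc in the 10 pituitary libraries (blue labelled WT, red labelled KO, numbers are library numbers; axes do not start at 0). Pcsk2 is higher where Pomc is higher (r = 0.858 over the 10 libraries), and Pomc of both genotypes overlaps between 7870 and 9409 CPM. All labelled KO libraries of Sytl1 lie below all labelled WT libraries.

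The third question was the same comparison in iWAT. Of the 37 members 25 were tested there and 0 passed, and 0% of the 16105 genes tested passed (edgeR's quasi-likelihood test). At an unadjusted p under 0.05 there were 0 of the 25 members and 0.553% of all genes, and DESeq2 and limma voom also called 0 genes. The log2 fold changes of the 25, labelled KO over labelled WT, lay between -0.45 and 0.40 with a median of -0.054, against -0.0002 over all genes tested; 11 were positive and 14 negative. In all 25 the libraries of the labelled genotypes overlapped, where 0.0807% of all genes showed no overlap. Of the 82 other release genes 68 were tested in iWAT and 0 passed.

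The abundant iWAT members held close levels in both labelled genotypes. Pam was at 146, 154, 114, 112 and 135 CPM in the labelled KO libraries and 186, 129, 109, 179 and 106 CPM in the labelled WT libraries, and Vamp3 at 59.8, 73.9, 57.8, 85.3 and 64.4 and 79.2, 64.6, 56.1, 74.3 and 59.3 CPM. Vamp2 was at 34.8 ± 4.1 CPM in the labelled KO libraries and 33.8 ± 4.26 CPM in the labelled WT libraries (SD, n = 5 each; log2 fold change 0.042, SE 0.11). These ranges overlapped almost wholly. Rab3d was at 45.9, 64.6, 49.9, 95.1 and 55.7 CPM in the labelled KO libraries and 69.4, 54.2, 43.8, 72.5 and 62.2 CPM in the labelled WT libraries, with KO 50 the highest of the 10. Rab27a was at 31.2, 21.5, 60.6, 12.1 and 24.9 CPM in the labelled KO libraries and 20.2, 42.2, 35.5, 18.8 and 27.8 CPM in the labelled WT libraries, with KO 35 the highest. Cpe had the smallest p of these 6, at 31.7, 41.9, 34.5, 23.3 and 32.8 CPM in labelled KO against 42.5, 26.0, 47.7, 56.1 and 40.5 CPM in labelled WT (log2 fold change -0.37, SE 0.21, unadjusted p = 0.1002 by edgeR's quasi-likelihood test). With 21 weeks only it was 0.041.

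Sytl1, the member lower in the labelled KO pituitary, was at 4.78, 7.99, 9.34, 14.0 and 9.62 CPM in labelled KO iWAT and 2.64, 14.6, 8.81, 7.78 and 8.86 CPM in labelled WT iWAT. The groups overlapped widely (log2 fold change 0.096, SE 0.40), and the value was -0.13 without WT 33 and -0.11 without KO 50, the library with the lowest lymph node and highest blood and adipocyte markers. The difference between the tissues in the labelled KO effect on Sytl1, iWAT minus pituitary, was 0.57 (SE 0.41, unadjusted p = 0.180 by edgeR's quasi-likelihood test), and it did not pass.

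Single libraries set the extremes of the iWAT values. Rab27b had the lowest log2 fold change of the 25, -0.45 (SE 0.61), and was at 1.71, 1.65, 1.17, 1.39 and 5.39 CPM in the labelled KO libraries and 1.9, 8.27, 1.7, 2.44 and 1.15 CPM in the labelled WT libraries. Its highest libraries, WT 34 and KO 66, were also the highest of the 10 for the epithelial keratin gene Krt8 (61.0 and 28.1 CPM) and the epithelial adhesion gene Epcam (39.4 and 19.3 CPM), and without WT 34 its log2 fold change was 0.33. Cadps had the highest log2 fold change, 0.40 (SE 0.49), and was at 0.402, 1.45, 2.16, 0.416 and 0.927 CPM in labelled KO, with KO 35 the highest, and 1.35, 0.498, 0.587, 0.772 and 0.828 CPM in labelled WT, with WT 33 the highest. Without KO 35 it was -0.028. Snap25 was at 0.352, 0.895, 5.14, 1.59 and 0.811 CPM in the labelled KO libraries and 4.78, 0.56, 0.411, 0.9 and 0.828 CPM in the labelled WT libraries, and Syt1 at 1.66, 1.86, 5.37, 0.762 and 2.38 and 4.23, 2.05, 2.52, 0.965 and 2.8 CPM. For both genes KO 35 and WT 33 stood above all others. These libraries had the highest Nefl and Nefm among the 8 neuron markers, but with at most 14 and 8 counts. WT 34 did not stand out for Snap25 and Syt1. Its Map2 was the highest, and its sum of the 8 neuron markers (23.4 CPM) was above that of WT 33 (18.4 CPM). The part of epithelial and nerve RNA in these values was not tested.

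**Figure D5:**
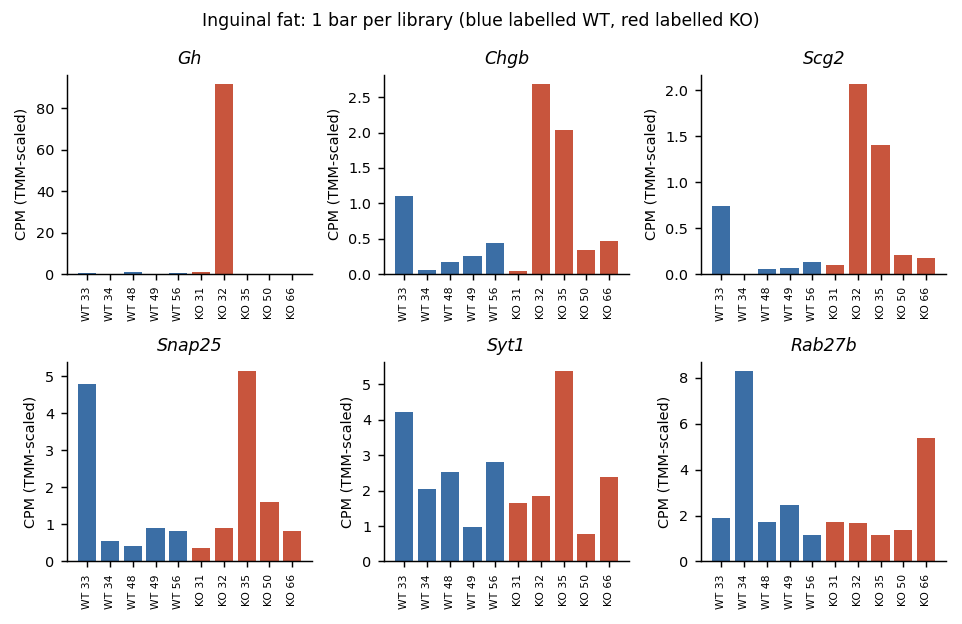
CPM in each iWAT library (bars; blue labelled WT, red labelled KO) for Gh and for the members Chgb, Scg2, Snap25, Syt1 and Rab27b, on axes that start at 0. KO 32 is far the highest for Gh, at 91.6 CPM against at most 0.955 CPM in the other 9 libraries, KO 32, KO 35 and WT 33 are highest for Chgb and Scg2, KO 35 and WT 33 for Snap25 and Syt1, and WT 34 and KO 66 for Rab27b.

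The 12 members not tested in iWAT were traces there. Their summed level was 2.61, 10.5, 11.96, 2.70 and 3.07 CPM in KO 31, 32, 35, 50 and 66 and 9.31, 3.17, 1.47, 2.32 and 1.85 CPM in WT 33, 34, 48, 49 and 56. For 8 of the 12 the 3 highest libraries were KO 32, KO 35 and WT 33. Chgb counts were 1, 39, 35, 5 and 8 in labelled KO and 18, 1, 3, 4 and 7 in labelled WT, and Scg2 counts 2, 30, 24, 3 and 3 and 12, 0, 1, 1 and 2. In KO 32 the level as a share of the mean pituitary level was 0.0935% for Gh, 0.0710% for Prl, 0.0778% for Pomc, 0.105% for Cga, 0.0918% for Chgb, 0.0785% for Scg2 and 0.0875% for Resp18. It was higher for the other untested members: 0.174% to 0.182% for Ptprn2, Pcsk1n and Chga, 0.241% and 0.291% for Pcsk2 and Pcsk1, 0.406% for Rab3c, and 6.20% to 20.2% for Vgf, Sytl5 and Cplx1, which are low in the pituitary. KO 35 and WT 33 held Chgb at 0.0698% and 0.0377% of the pituitary mean but Gh at 0.000298% and 0.000375%. Rab3c, at 0.302, 0.757, 2.8, 0.139 and 0.579 CPM in the labelled KO libraries and 1.47, 0.124, 0.176, 0.193 and 0.0637 CPM in the labelled WT libraries, was highest in KO 35 and WT 33. The part of pituitary RNA in the traces of KO 32 was not tested.

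The last question was whether the labelled KO effect differed between the tissues. Of the 25 members tested in both tissues 0 passed, and 0% of the 14854 genes tested in both passed (edgeR's quasi-likelihood test, 1 fit over 20 libraries). With an unadjusted p under 0.05 there were 0 of the 25 members and 1.71% of these genes; over all 17731 genes in the fit DESeq2 called 1 gene, which was no member, and limma voom called 0 genes. The differences of the 25, iWAT minus pituitary on the log2 scale, lay between -0.61 and 0.57 (Sytl1) with a median of -0.090, against 0.022 over the genes tested in both; 8 were positive and 17 negative.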

How the data were processed

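Per the file headers, the authors counted primary alignments over the exons of an mm10 annotation with featureCounts, and the deposited values are raw whole-number counts for each gene. A read over several genes was counted for each, and no strand option is given there, so overlapping genes cannot be told apart; 4 members (Pcsk2, Pcsk1n, Rab3a and Rab3b) share exon bases with another gene. The submitters' processing notes name the tools STAR 2.4.0 and featureCounts 1.4.4, and mm10 and GRCm38 as builds.

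The labelled genotypes were compared within a tissue by edgeR 4.0.16 under R 4.3.3, with its filterByExpr filter, TMM factors and the robust quasi-likelihood test; p-values were adjusted after Benjamini and Hochberg over all genes tested (threshold 0.05). The SE is the log2 fold change over the square root of F. The tissue effect used the 10 labelled WT libraries, and the difference of the labelled KO effect between tissues used 1 fit over 20 libraries. Both count members only among the 25 that passed the filter in each tissue. TPM used the exon lengths in the files. No 2 libraries of a group agreed within sampling noise (smallest reduced chi-square 4.70 over 40 pairs), and all were kept. The fits were tested on simulated counts.

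The members, gene lists and tests were chosen with earlier results of these data known. Values per library are given for members past the threshold or with an unadjusted p under 0.05 between labelled genotypes, the 12 highest members in the pituitary and 6 in iWAT by TPM, and members not higher in the pituitary; the others are given by mean or range. Of the 82 other release genes those past the threshold are named. The comparison with Pomc and the other members named with values per library (Vgf, Cadps, Snap25, Syt1, Rab3c and Sytl1 in iWAT) were chosen after their values were seen, as were the marker genes named beside Sytl1. Alternatives were RLE scaling, other filters, DESeq2 1.42.0, limma 3.58.1 voom, age as a covariate, 21 weeks only, all libraries in 1 fit, leaving out each library, library totals without the 20 most abundant genes and the library number as a block. Leaving out KO 50 with KO 66 (pituitary) and KO 32, KO 35 and WT 33 (iWAT) was added after seeing the data.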

Additional observations from a re-analysis of the deposited data

Results flagged for a closer look

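A library is listed here when, within a group of 5, its gap to the nearest of the other libraries exceeded 0.71 of the group's range (Dixon's test). Of 143 groups with at least 10 counts in a library, 15 were listed. The limit gives about 1 in 20 groups for independent, normally distributed values. Low iWAT counts of several genes in the same library are neither, so that rate is no measure of chance here. Most of the listed libraries lay in iWAT, and all values are CPM.

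In iWAT WT 33, Pcsk2 was at 1.35 (others 0.0637 to 0.193), Scg2 at 0.735 (0 to 0.127), Rab3c at 1.47 (0.0637 to 0.193), Snap25 at 4.78 (0.411 to 0.900), Cplx1 at 1.16 (0 to 0.311) and Klf14 itself at 3.0 (0.0587 to 0.772). In iWAT KO 35, Rab3c was at 2.80 (others 0.139 to 0.757) and Snap25 at 5.14 (0.352 to 1.59). Rab27b was at 8.27 in iWAT WT 34 (others 1.15 to 2.44) and at 5.39 in iWAT KO 66 (1.17 to 1.71). Sytl2 was at 7.07 in iWAT KO 50, below the others (13.4 to 14.8). The summed lymph node markers of this library were 14.96, against 259 to 1109 in the other 9. Its summed blood, adipocyte and endothelial markers were the highest in iWAT, at 7142, 16778 and 1266. The part of these cells in the value of Sytl2 was not tested.

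In the pituitary, Sytl2 was at 10.6 in KO 35 (others 5.24 to 6.53) and at 9.55 in WT 56 (6.75 to 7.50). Scg2 was at 2290 in KO 66, below the others (2640 to 2770), and Rims2 was at 162 in WT 49 (145 to 149).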

How the results depend on the processing

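The call of Sytl1 in the pituitary kept its direction and threshold in 17 of 19 alternatives. The count of members called there was 1, and 0 with 21 weeks only and with all 20 libraries in 1 fit; it was 1 without any single library. The count of all genes called, 90, was 288 with DESeq2, 44 with age as a covariate, 5 with 21 weeks only, 1 with all 20 libraries in 1 fit, 58 without KO 50 and KO 66, and 50 to 112 without single libraries (50 without WT 49, 51 without WT 56, 55 without KO 32). In iWAT no alternative called a gene. Signs turned there for members that did not pass: Sytl1 (0.096) was -0.12 and Cpe (-0.37) 0.041 with 21 weeks only; without KO 32, KO 35 and WT 33 Sytl1 was -0.083 and Cadps (0.40) -0.20; without single libraries Sytl1 was -0.13 to 0.38, Rab27b (-0.45) -1.06 to 0.33 and Cadps -0.028 to 0.67. The cause was not tested. For the difference between tissues DESeq2 called 1 gene and the others 0. Between the tissues, 21 to 22 of the 25 members tested in both were called higher in the pituitary and 2 to 3 lower. Rims3 kept its direction in 19 alternatives and its call in 8.

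Same-numbered pituitary and iWAT libraries had the same age, and the correlation of their deviations was -0.0896 to 0.131 over 10 numbers. Of these correlations 3 were above 0.1, and 3 libraries correlated best with their own number. A correlation between unlike tissues cannot decide whether a number stands for a single animal. The main fits did not pair the libraries. With the number as a replicate block 0 genes were called for the difference between tissues, and 13197 genes, with 22 of these 25 members higher and 3 lower, in the labelled WT pituitary against iWAT, against 13461, 22 and 3 without the block. At the depth of iWAT the 12 untested members were too low to compare.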
